A study of Hydra vulgaris with 32 samples.

Results

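Hydroxyurea-treated and untreated polyps of the freshwater cnidarian Hydra were compared on day 4 after the beginning of treatment. The comparison used 3 hydroxyurea and 3 control libraries out of the 32 libraries of the series, chosen by the treatment and day that the labels give. All animals belonged to strain Sf-1, which is thermosensitive, and RNA was taken from the central body column, with apical and basal regions removed. Treated animals received hydroxyurea at 10 mM in 3 periods of 24 h, with 12 h in plain medium between periods, and control animals received no drug. Both groups had been starved for 4 days. Read counts were summed over all assembled sequences that carry the same locus number, which gave 25879 loci in all, of which 17107 had enough reads to be tested.

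Hydroxyurea blocks ribonucleotide reductase and thereby the supply of deoxynucleotides for DNA synthesis, so that cells are hit as they replicate their DNA. The body column of Hydra holds epithelial cells of the ectoderm and endoderm, which cycle slowly, and interstitial stem cells, which cycle fast and give rise to nerve cells, stinging cells, gland cells and germ cells. Hydroxyurea has long been used to remove interstitial cells and their dividing progeny while epithelial cells remain, and in Sf-1 polyps the same lineage is lost at raised temperature. In whole-tissue RNA, fewer cells of a type and less RNA per cell cannot be told apart.

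Counted from the periods and pauses that the labels give, treatment closed 96 h after its start, which is day 4. The presence of the drug and the state of the tissue after it can therefore not be told apart on this day. The sample titles of both groups read day 3, and the label's day 4 is used here. Each deposited identifier names a sequence and the locus it belongs to. Of 28925 genes in the reference table of assembly HydraT2T_AEP, 0 matched an identifier, so the files do not pair loci with gene names. The labelled tissue could not be checked against marker genes, and 4 loci are printed by identifier.

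The 6 libraries held 24.0 M to 32.8 M counts (M, mega), and 19839 to 20973 loci had reads in a library. Replicate A was the deepest library in both groups, as in all 10 groups of the series. The locus with the most reads, which is not among the 4 printed, took 1.85% to 15.6% of the counts in hydroxyurea libraries and 1.20% to 8.26% in control libraries. On principal components of log2 CPM (counts per M counts, on TMM-adjusted library totals) over the tested loci, the first component held 60.9% of the variance. It placed the hydroxyurea libraries at 52.4, 53.8 and 66.6 and the control libraries at -55.3, -63.3 and -54.3. The second component held 15.3% and set replicate A of both groups, at 50.9 for hydroxyurea and 27.8 for control, apart from the other 4 libraries, at -27.8 to -10.7. Across loci, which are not independent replicates, pairs of hydroxyurea libraries correlated with Pearson r of 0.974 to 0.979, pairs of control libraries with 0.983 to 0.986, and pairs between the groups with 0.941 to 0.954. Within groups, the median SD of log2 CPM over all tested loci was 0.21 among hydroxyurea libraries and 0.17 among control libraries.

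On day 4, 1882 loci fell and 1234 rose in hydroxyurea-treated animals, with 3 libraries a group, where called means a Benjamini-Hochberg adjusted p below 0.05 from edgeR (quasi-likelihood). These calls made up 18.2% of the loci tested, 11.0% lower and 7.21% higher. The median log2 fold change of the lower loci was -0.93, which leaves 52.6% of the control level, with quartiles of -2.10 and -0.54. The median of the higher loci was 0.68, or 1.60-fold, with quartiles of 0.50 and 1.18. Over all 17107 loci the median was 0.00. Levels are relative to library totals, so a rise of a locus and a loss of other RNA cannot be told apart.

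Falls reached further than rises. Of the 1882 lower loci, 897 (47.7%) fell by at least 2-fold, 510 (27.1%) by at least 4-fold and 269 by at least 8-fold. Of the 1234 higher loci, 376 (30.5%) rose by at least 2-fold, 136 (11.0%) by at least 4-fold and 62 by at least 8-fold. These are fitted values. At 69 lower and 23 higher loci, every library of the lower group had at most 3 counts. With these loci set at a bound of 3 counts per library, 483 fell and 120 rose by at least 4-fold, and 237 fell and 47 rose by at least 8-fold. All 3 hydroxyurea libraries lay below all 3 control libraries in 1870 (99.4%) of the lower loci, against 21.2% of all loci tested. They lay above all controls in 1197 (97.0%) of the higher loci, against 17.4% of all loci tested. The same libraries made the calls, so these shares are a description. The remaining 12 lower and 37 higher loci were called although their libraries overlapped.

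The 3 hydroxyurea libraries moved by similar amounts. Relative to the control mean, the lower loci had a median log2 shift of -0.89, -0.88 and -0.98 in hydroxyurea replicates A, B and C, and the higher loci had 0.70, 0.64 and 0.72. Among the loci that fell by at least 4-fold, the shift was -2.70 in replicate A, -2.83 in replicate B and -3.18 in replicate C. These are descriptions, since the same libraries chose the loci.

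**Figure D1:**
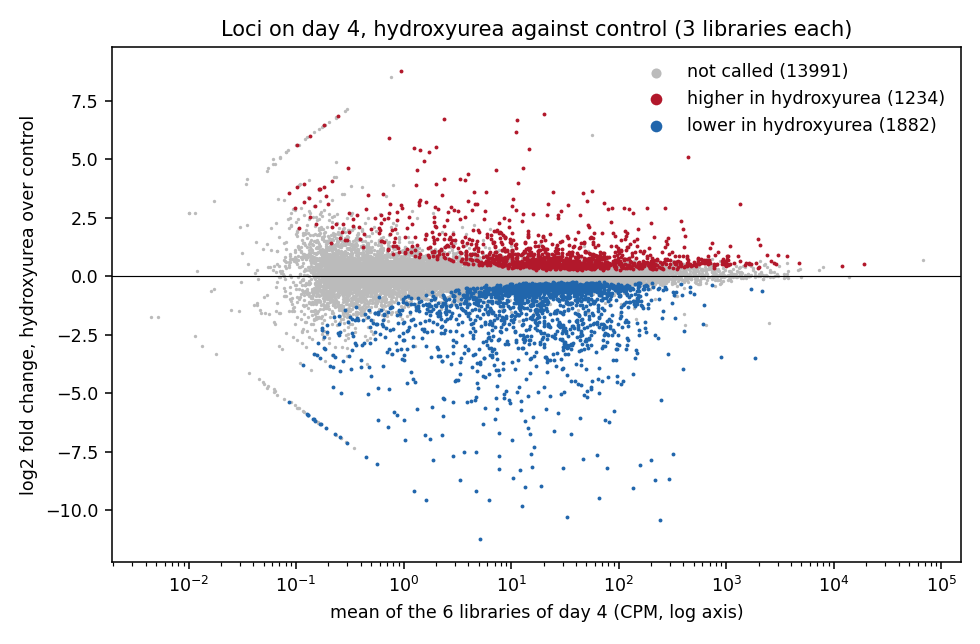
Log2 fold change of each of the 17107 tested loci on day 4, hydroxyurea over control, against its mean CPM over the 6 libraries on a log axis. Among called loci with more than 3 counts in a library of each group, points reach -10.39 below 0 and 6.91 above it, and at 1000 CPM or more 31 called loci lie above 0 and 3 below.

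The share of loci called depended on their abundance. Among the 3980 loci with a mean under 1 CPM over the 6 libraries, 3.07% were lower and 1.83% higher. Among the 4948 loci at 1 to 10 CPM, 9.64% were lower and 5.38% higher. The 6659 loci at 10 to 100 CPM had 17.1% lower and 9.70% higher. At 100 to 1000 CPM the order was turned, with 10.1% lower and 15.8% higher of 1380 loci. Of the 140 loci at 1000 CPM or more, 3 (2.14%) were lower and 31 (22.1%) higher. The mean includes the treated libraries, so a fall moves a locus toward a lower bin and a rise toward a higher one. How much of the order between bins this makes was not tested. The median standard error of the log2 fold change was 0.64 under 1 CPM, 0.32 at 1 to 10 CPM and 0.15 at 10 to 100 CPM, so small changes of rare loci were not detectable at this depth.

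The 31 abundant higher loci rose by a median log2 fold change of 0.58. They were also called higher at the later days in hydroxyurea, 31 of 31 on each of days 5, 7 and 11, where 8.81%, 11.4% and 13.0% of all loci tested were called higher. After heat shock 29 of them were called higher, against 14.6% of all loci. After colchicine 19 were called higher and 9 lower, against 21.7% and 25.6% of all loci. Over all tested loci, the median log2 shift from control day 11 was -0.15 and -0.43 in colchicine replicates B and C. In colchicine replicate A it was 0.00. How far this shift touches the colchicine calls was not tested.

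**Figure D2:**
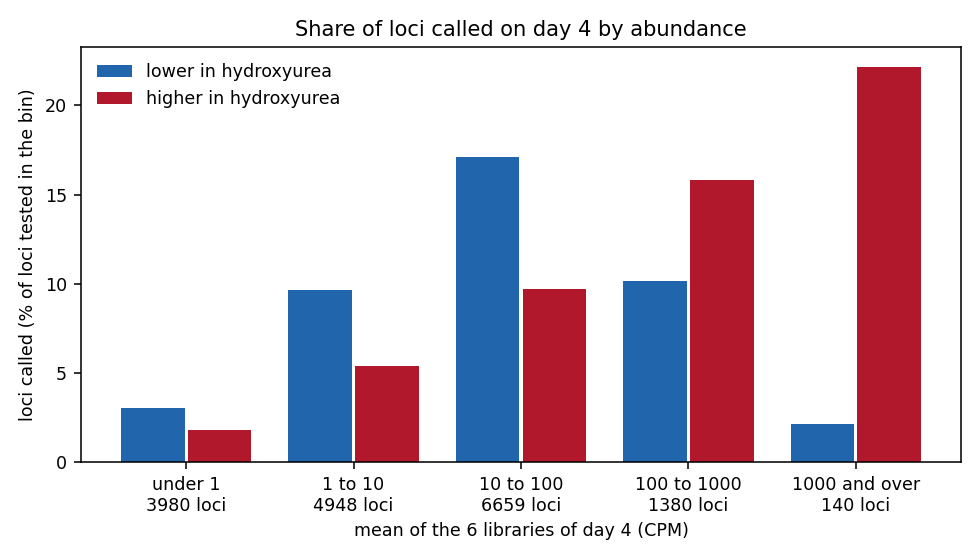
Percent of tested loci called lower or higher in hydroxyurea on day 4, by the mean CPM of the 6 libraries, with the number of loci under each bin. Lower calls peak at 17.1% of loci at 10 to 100 CPM, and higher calls reach 22.1% of the 140 loci at 1000 CPM or more.

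A small set of loci had fallen to the detection limit by day 4. The limit set by finding 0 reads, taken as 3 counts, was 0.0915 to 0.137 CPM in the hydroxyurea libraries, on TMM-adjusted totals, and it covers counting error only. At most 3 counts in each hydroxyurea library, with a mean of at least 1 CPM in controls, were found at 28 loci, and all 28 were called. Of these, 12 had at least 5 CPM and 7 at least 10 CPM in controls, up to 65.6 CPM. The reverse, at most 3 counts in each control library and at least 1 CPM in hydroxyurea, was found at 5 loci, of which 4 were called. The highest of the 5 had 4.70 CPM in hydroxyurea. Over all loci tested, 11.0% were called lower and 7.21% higher. The same counts chose these loci and entered the test, so the numbers called are a description.

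Loci were printed by a rule: in each direction, the locus with the largest log2 fold change and the locus with the largest difference of mean CPM, among called loci whose groups did not overlap and which reached 5 CPM on average. This left 1514 lower and 991 higher loci to choose from. That the groups lie apart on day 4 at the printed loci is therefore set by the rule.

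The locus loc24770, a single sequence, had 0 counts in hydroxyurea replicates A, B and C, against 10.3, 11.2 and 9.37 CPM (383, 327 and 297 counts) in control replicates A, B and C. No read was found in any treated library on day 4, and the control libraries lay close together. Set against a floor of 3 counts per library, its level was at least 92.7-fold lower, with an adjusted p of 1.26e-09 in edgeR. It stayed near 0 afterwards, with at most 3 counts in any hydroxyurea library of days 5, 7 and 11, against 8.99 ± 0.981, 8.42 ± 0.662 (SD, n = 3 each) and 10.3 ± 1.20 CPM (SD, n = 4) in the controls of these days. After colchicine it had at most 1 count in a library. After heat shock it had 0 or 1 count in replicates A, C and D and 12 counts (0.498 CPM) in replicate B.

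The locus loc02593, with 4 sequences, showed the largest loss in mean CPM among the loci that met the rule. It had 377, 282 and 239 CPM in hydroxyurea replicates A, B and C, against 3352, 3603 and 3130 CPM in control replicates A, B and C. The lowest control library was thus far above the highest hydroxyurea library. The log2 fold change was -3.49 ± 0.85 (SE), or 11.2-fold lower, with an adjusted p of 0.00374 in edgeR. From the same reads, all 3 of its sequences that were tested were called lower, against 5.90% of all sequences tested.

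Its fall went on after day 4. Hydroxyurea libraries had 123 ± 44.7 CPM on day 5, against 3280 ± 155 CPM in controls (SD, n = 3 each). They had 2.01 ± 0.608 CPM on day 7, against 3009 ± 72.6 CPM in controls (SD, n = 3 each). On day 11 they had 2.71 ± 1.55 CPM (SD, n = 3), against 3149 ± 377 CPM in controls (SD, n = 4). The effect on day 11 was below that on day 4 by a log2 difference of -6.67, with an adjusted p of 0.000742 in edgeR. After heat shock the libraries had 7.93, 303, 43.6 and 12.6 CPM in replicates A, B, C and D, and after colchicine 5.53, 12.1 and 45.0 CPM in replicates A, B and C.

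The locus loc18216, with 3 sequences, had the largest fitted rise among the loci that met the rule. It had 30.6, 22.5 and 66.0 CPM in hydroxyurea replicates A, B and C, against 0.322, 0.205 and 0.442 CPM (12, 6 and 14 counts) in control replicates A, B and C. Every treated library was above every control library, and the means were 39.7 ± 23.1 CPM in hydroxyurea and 0.323 ± 0.118 CPM in controls (SD, n = 3 each). The log2 fold change was 6.91 ± 1.38 (SE), with an adjusted p of 0.000623 in edgeR. From the same reads, 2 of its 3 sequences were called higher, against 2.65% of all sequences tested.

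Treated levels of loc18216 stayed above controls later but were uneven between libraries. They were 7.17, 69.3 and 61.9 CPM on day 5, against 0.183 ± 0.181 CPM in controls (SD, n = 3). They were 36.1, 128 and 66.3 CPM on day 7, against 0.118 ± 0.0334 CPM in controls (SD, n = 3), and 1.85, 43.8 and 18.6 CPM on day 11. After heat shock replicate A had 110 CPM and replicates B, C and D had 17.0, 5.21 and 3.15 CPM, and after colchicine the 3 libraries had 61.5 to 185 CPM. The controls of day 11, which serve all 3 late treatments, had 0.0769 ± 0.0836 CPM (SD, n = 4). The hydroxyurea effect on day 11 minus that on day 4 was 1.22 ± 2.62 (log2, SE), which did not pass the test (adjusted p = 0.975 in edgeR).

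The locus loc02296, a single sequence, had the largest gain in mean CPM among the loci that met the rule. It had 25879, 21456 and 19841 CPM in hydroxyurea replicates A, B and C, against 16315, 15380 and 15591 CPM in control replicates A, B and C. The groups did not overlap, but the hydroxyurea libraries were spread more widely. The log2 fold change was 0.51 ± 0.12 (SE), or 1.42-fold, with an adjusted p of 0.00286 in edgeR. It was 1.68-fold higher on day 11 in hydroxyurea, 1.83-fold after heat shock and 2.03-fold after colchicine, each over control day 11 and each called. The difference between the effects of days 11 and 4 did not pass the test, with a log2 difference of 0.24 ± 0.16 (SE) and an adjusted p of 0.689 in edgeR.

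**Figure D3:**
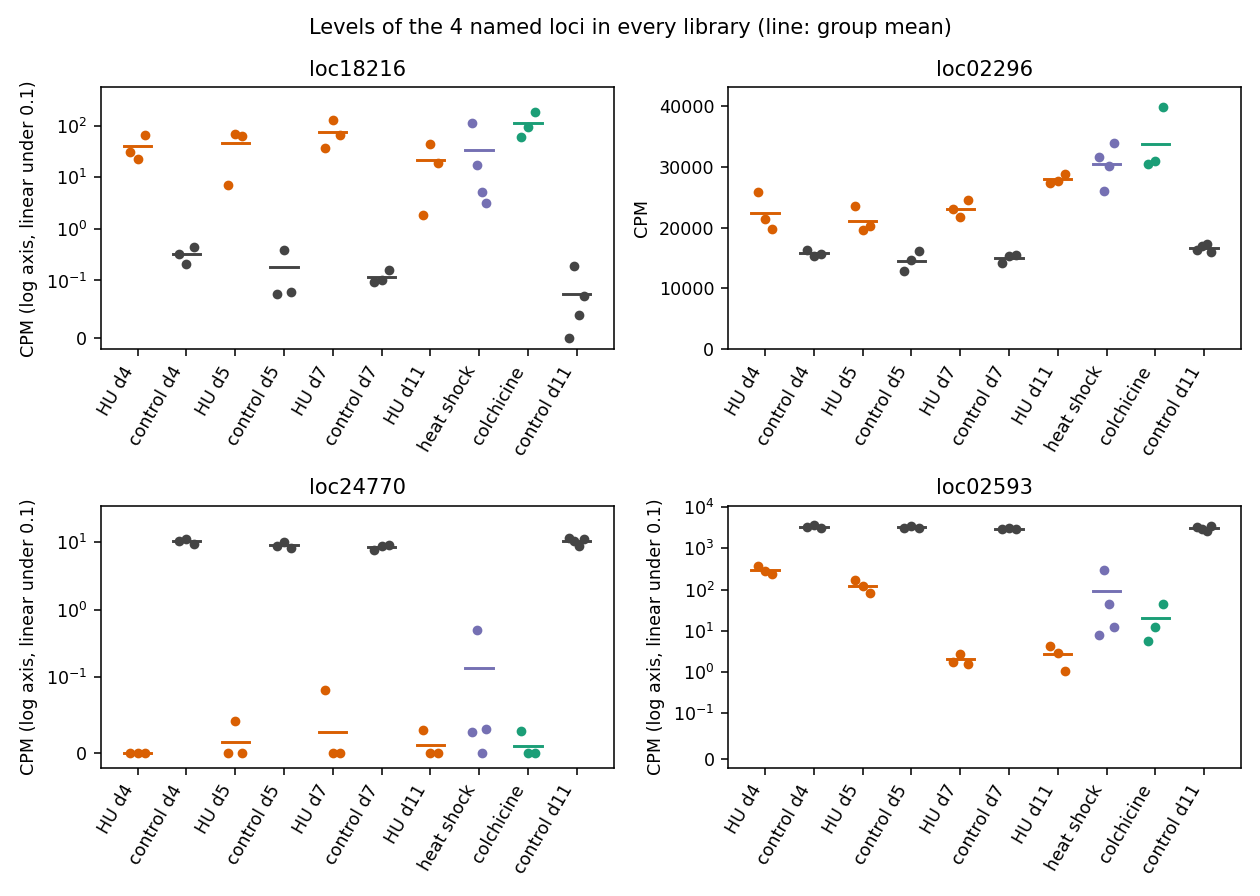
CPM of loc18216, loc02296, loc24770 and loc02593 in each of the 32 libraries (points) with the group mean (line), where HU is hydroxyurea and d the day. On day 4 the 3 hydroxyurea libraries lie apart from the 3 control libraries at all 4 loci, as the rule that chose them required. In hydroxyurea, loc02593 falls to 2.01 CPM on day 7.

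The 20 loci with the largest rise and the 20 with the largest fall under the same conditions were described together. Of the 20 falling loci, the 13 with more than 3 counts in a hydroxyurea library had log2 fold changes of -10.39 to -7.79. Over all 20 falling loci, group means in hydroxyurea were 0 to 1.70 CPM, with a median of 0.141 CPM. In controls they were 10.3 to 588 CPM, with a median of 63.0 CPM. In the 7 loci outside the 13, all hydroxyurea libraries had at most 3 counts. With these at their floor the median log2 fold change was -8.15, that is 285-fold lower, and without the floor it was -8.69. On days 5, 7 and 11 and after heat shock and colchicine, 20 of 20 were called lower, against 13.0%, 14.3%, 13.7%, 14.4% and 25.6% of all loci tested. Their median log2 fold change was -5.55 after heat shock. In the other 4 it was between -9.39 and -8.96, or between -8.95 and -8.00 at the floor. Over the 510 loci that fell by at least 4-fold on day 4, replicate B had the smallest fall of the heat shock libraries. Its median log2 shift was -2.90, against -4.88 to -4.53 in the others. How far replicate B sets the -5.55 of these 20 loci was not tested.

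The 20 rising loci had log2 fold changes of 2.93 to 6.91. Their means were 10.8 to 2394 CPM in hydroxyurea, with a median of 39.3 CPM, against 0.211 to 282 CPM in controls, with a median of 3.03 CPM. None of these loci was at the floor in controls, and the median log2 fold change was 3.60, or 12.1-fold. In the other 5 comparisons (days 5, 7 and 11, heat shock and colchicine) 20 of 20 were called higher, against 8.81%, 11.4%, 13.0%, 14.6% and 21.7% of all loci tested. The median log2 fold change of these 20 was 3.65 on day 5, 5.74 on day 7, 5.34 on day 11, 4.68 after heat shock and 5.34 after colchicine.

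The loci called on day 4 were followed in the other libraries of the series, which were not part of the day 4 contrast but shared the fit's filter and dispersion estimates with it. Days 5, 7 and 11 had control libraries of their own, and heat shock (28 °C for 62 h) and colchicine (0.4% for 8 h, a blocker of microtubule assembly), both sampled on day 9 after treatment began, were set against control day 11, which matched their 11 days of starvation. Hydroxyurea day 11, heat shock and colchicine share those controls with each other but not with day 4.

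Of the 1882 loci lower on day 4, 1678 (89.2%) were called lower on day 5, against 13.0% of all loci tested. On day 7 the number was 1505 (80.0%), against 14.3%, and on day 11 it was 1462 (77.7%), against 13.7%. After heat shock 1407 (74.8%) were lower, against 14.4%, and after colchicine 1295 (68.8%), against 25.6%. Calls in the opposite direction numbered 0, 1 and 4 on days 5, 7 and 11, 3 after heat shock and 92 after colchicine. On all 3 later days 1349 loci (71.7%) were lower, and in all 5 comparisons 1048 (55.7%). The share of all loci tested that was lower in all of them was not counted. Hydroxyurea day 11, heat shock and colchicine share controls, so these joint counts are a description.

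Of the 1234 loci higher on day 4, 1018 (82.5%) were called higher on day 5, against 8.81% of all loci tested. On day 7 the number was 939 (76.1%), against 11.4%, and on day 11 it was 925 (75.0%), against 13.0%. After heat shock 936 (75.9%) were higher, against 14.6%, and after colchicine 865 (70.1%), against 21.7%. Opposite calls numbered 0, 1 and 5 on days 5, 7 and 11, 15 after heat shock and 110 after colchicine. On all 3 later days 760 loci (61.6%) were higher, and in all 5 comparisons 590 (47.8%). Here too the share of all loci tested was not counted and controls are shared, so the joint counts are a description.

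Single libraries touch these values. Without heat shock replicate B, 74.5% of the loci lower and 71.2% of those higher on day 4 were called the same way after heat shock. The shares of all loci called in that fit were not counted. Colchicine replicates B and C were shallow and lay low over all tested loci. With colchicine replicate A alone, the median log2 fold change after colchicine was -0.89 at the lower loci and 0.63 at the higher loci. With all colchicine libraries these medians were -0.90 and 0.78. Calls are not given for that fit, since a lone library has no spread of its own.

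Across all 17107 loci the log2 fold changes of day 4 correlated with those of day 5 with a Pearson r of 0.771 and a Spearman rho of 0.735. The Pearson r was 0.718 with day 7, 0.696 with day 11, 0.686 with heat shock and 0.553 with colchicine. These are descriptions across loci, which are not independent, and the comparisons differ in the depth of their libraries.

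The loci with the largest falls on day 4 had larger falls on the later days. The 510 loci with a fall of at least 4-fold on day 4 had a median log2 fold change of -3.09 on that day, -3.90 on day 5, -5.44 on day 7 and -5.82 on day 11. With loci of at most 3 counts in every treated library set at their floor, these medians were -2.91, -3.66, -4.61 and -4.83. The mean CPM in hydroxyurea was under 5% of the control mean in 136 of the 510 on day 4, in 208 on day 5, in 317 on day 7 and in 339 on day 11. It was under 1% in 58, 73, 204 and 229 of them. Over all 17107 loci the median log2 fold changes were 0.00, 0.00, 0.04 and 0.01 on the 4 days.

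The 387 loci with a fall of 2 to 4-fold on day 4 had medians of -1.41, -1.58, -1.63 and -1.72 on days 4, 5, 7 and 11. The 985 loci with a fall under 2-fold had medians of -0.55, -0.54, -0.51 and -0.43, which correspond to 68.5%, 68.7%, 70.0% and 74.4% of the control level. Of these 985, 12 were under 25% of the control mean on day 11. Values of day 4 chose these sets and also enter the test of day 11 against day 4.

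Tested directly, the hydroxyurea effect on day 11 differed from that on day 4 at 561 loci with an adjusted p under 0.05 in edgeR (3.28% of those tested), with day 11 lower at 431 (2.52%) and higher at 130 (0.760%). Among the 510 loci with a fall of at least 4-fold the effect was lower on day 11 at 191 and higher at 1. Among the 387 with a fall of 2 to 4-fold it was lower at 75 and higher at 3, and among the 985 with a smaller fall lower at 23 and higher at 19. The count was smaller without replicate A, in fits with fewer libraries. In replicates B, C and D alone 326 loci were called, and 101 of the lower loci had a lower effect on day 11, against 289 in all libraries.

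The higher loci had medians on the later days close to those of day 4. The 376 loci with a rise of at least 2-fold had median log2 fold changes of 1.66, 1.37, 1.85 and 1.65 on days 4, 5, 7 and 11. The 858 loci with a smaller rise had 0.55, 0.58, 0.57 and 0.53. In the direct test the effect on day 11 was above that on day 4 at 30 of the 1234 higher loci, against 0.760% of all loci, and below it at 13, against 2.52%. These 13 had a median log2 fold change of 0.56 on day 4, 0.40 on day 5, -0.04 on day 7 and -0.34 on day 11, and medians of -0.53 after heat shock and -0.38 after colchicine. At 23 of the 1882 lower loci the effect on day 11 was above that on day 4, with a median of -0.63 on day 4 and 0.23 on day 11.

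**Figure D4:**
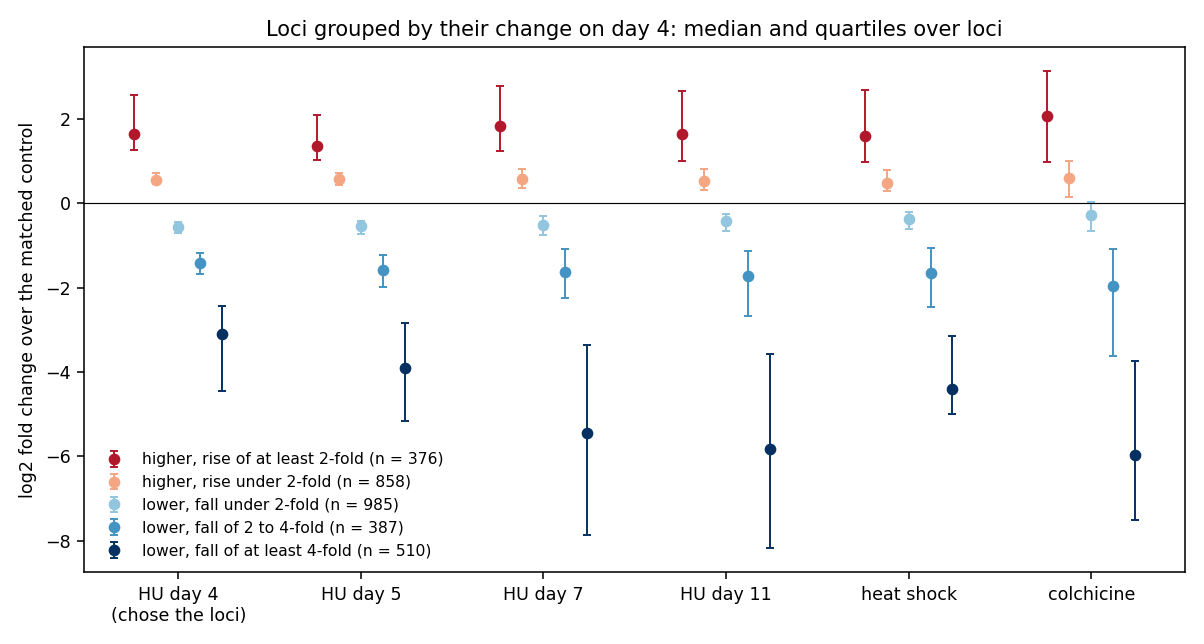
Median log2 fold change over the matched control (points) with quartiles over loci (bars) for loci grouped by their change on day 4, in hydroxyurea (HU) on days 4, 5, 7 and 11 and after heat shock and colchicine. The 510 loci with the largest falls move to -5.82 on day 11, while the 985 loci with falls under 2-fold stay between -0.55 and -0.28.

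After heat shock the same 510 loci had a median log2 fold change of -4.39, and after colchicine -5.95. At the floor these were -4.16 and -4.68. Without heat shock replicate B the median after heat shock was -5.16. By library, the median shift from control day 11 was -4.88, -2.90, -4.53 and -4.62 in heat shock replicates A, B, C and D, so replicate B showed the smallest fall of the 4. In colchicine replicates A, B and C it was -5.19, -5.24 and -5.20. The 985 loci with small falls on day 4 had medians of -0.36 after heat shock and -0.28 after colchicine, against -0.01 and -0.13 over all loci, and 90 of them (9.14%) were called higher after colchicine, against 21.7% of all loci.

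Further loci were called on day 11. Of the 13991 loci not called on day 4, 874 were lower and 1302 higher on day 11, against 13.7% and 13.0% of all loci tested. Their median log2 fold changes on day 4 already lay on the same side, at -0.30 and 0.25, against -0.73 and 0.62 on day 11. The direct test of day 11 against day 4 called 128 of the 874 lower and 74 of the 1302 higher, against 2.52% and 0.760% of all loci. Their calls on both days chose these loci, so the counts are a description.

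The called loci held a sizeable part of all reads. Loci called lower on day 4 held 4.57%, 4.15% and 4.35% of the library total in hydroxyurea replicates A, B and C, against 11.1%, 10.6% and 10.5% in control replicates A, B and C. Loci called higher held 22.8%, 19.1% and 22.1% in the hydroxyurea libraries, against 15.0%, 14.2% and 14.1% in the controls. These libraries chose the loci, so the values are a description.

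In the libraries outside the day 4 contrast, the share of the lower loci was 3.97% ± 0.234 in hydroxyurea on day 5, against 9.98% ± 0.594 in controls, and 3.83% ± 0.184 on day 7, against 10.1% ± 0.737 (SD, n = 3 each). Against the controls of day 11 it was 3.80% ± 0.149 in hydroxyurea on day 11 (SD, n = 3), 3.91% ± 0.292 after heat shock (SD, n = 4) and 4.30% ± 0.487 after colchicine (SD, n = 3), with 9.89% ± 1.12 in those controls (SD, n = 4). The share of the higher loci was 22.5% ± 1.02 on day 5 in hydroxyurea, against 13.9% ± 0.861 in controls, and 23.2% ± 0.687 on day 7, against 14.0% ± 1.06 (SD, n = 3 each). Against the controls of day 11 it was 24.1% ± 0.950 in hydroxyurea on day 11 (SD, n = 3), 22.5% ± 1.45 after heat shock (SD, n = 4) and 23.1% ± 1.12 after colchicine (SD, n = 3), with 13.6% ± 1.59 in those controls (SD, n = 4). No treated library overlapped with a control library of its comparison in either share.

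**Figure D5:**
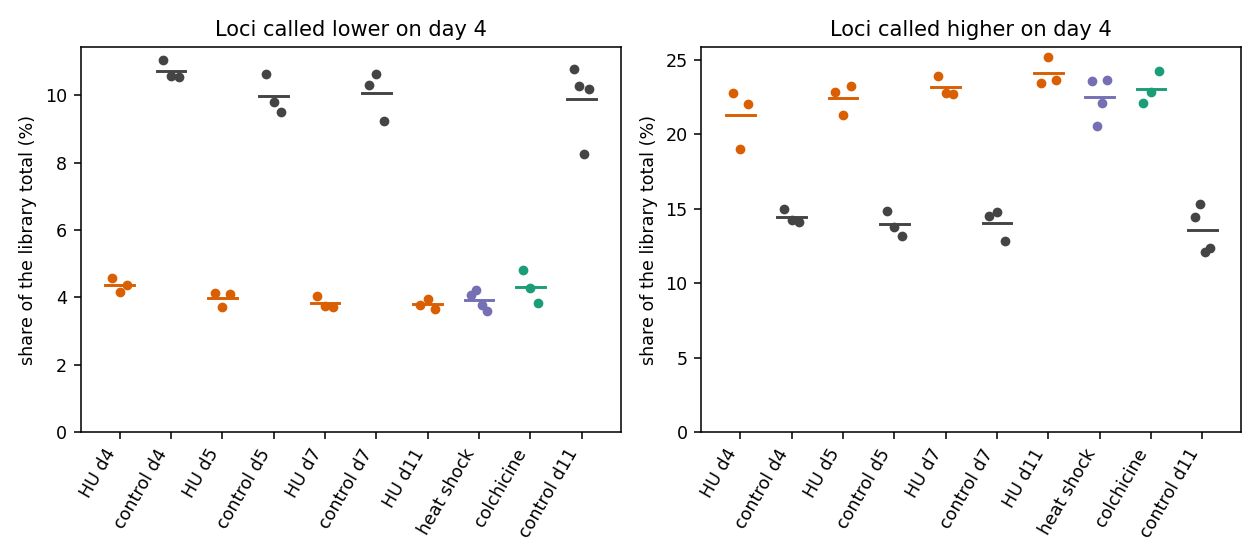
Percent of each library's counts that fell on loci called lower (left) or higher (right) on day 4, with 1 point per library and a line at the group mean, where HU is hydroxyurea and d the day. Treated libraries lie at 3.58% to 4.80% on the left and 19.1% to 25.2% on the right, control libraries at 8.25% to 11.1% and 12.1% to 15.3%.

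Summing per locus changed what was called. The same test on single sequences called 2276 lower and 1023 higher of 38606 tested, or 5.90% and 2.65%. Of the 1882 lower loci, 1509 held a sequence called lower and 373 held no called sequence. Of the 1234 higher loci, 739 held a sequence called higher, 494 held no called sequence and 1 held a called sequence in the lower direction alone. In the other direction, 260 of the sequences called lower (11.4%) and 104 of those called higher (10.2%) belonged to loci that were not called. Sequences called in opposite directions were found within 40 of the 8658 loci with 2 or more tested sequences, and 21 of these 40 loci were not called as a whole.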

How the data were processed

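PolyA RNA, isolated on RNeasy columns, went into directional TruSeq libraries, per the labels' protocols. The authors deposited whole-number read counts for 79774 sequences in 32 libraries. The submitters' processing notes name cutadapt 1.11, Salmon 0.7.2 and DESeq2. Salmon estimates how reads divide among sequences, so the deposited counts may be rounded estimates. Its options, the sequence set and the use of strand are not given in the sources used here, so antisense or near-identical sequences could share reads. The 17 counts of 7 digits were all printed as multiples of 10. The deposited table of normalized values was not used.

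Counts were summed per locus and tested with edgeR 4.0.16 (quasi-likelihood, robust) in R 4.3.3. All 32 libraries in 10 groups were fitted together, with TMM factors of 0.757 to 1.20 and 22 residual degrees of freedom. The filterByExpr function, with a minimum of 10 counts, kept 17107 loci with 99.96% of all counts. Loci were called at a Benjamini-Hochberg adjusted p under 0.05. Log2 CPM used a prior count of 2. SE values are the log2 fold change divided by the root of the F statistic. They and the p-values rest on the spread within all 10 groups, not within those of day 4 alone. The fit was tested on simulated data. DESeq2 1.42.0 and limma 3.58.1 served as alternatives.

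Nothing in the labels says that replicates came from separate cultures, so p-values measure the spread between these libraries, which may be technical. No pair of replicates agreed within sampling noise (chi-square over its degrees of freedom of 16.5 or more). The comparison, the loci groups and the alternatives were chosen with earlier results of these data known. The rule for printed loci is given where it is used.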

Additional observations from a re-analysis of the deposited data

Results flagged for a closer look

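In groups of 4 libraries, 12 sets of values (the 4 printed loci and the 2 shares of counts, in heat shock and control day 11) were examined for a library far from the others, where chance gives about 0.6. In 3 sets, all of heat shock, the gap of the extreme library to its neighbour exceeded the critical share of the range (Dixon's rule). For loc02593, heat shock replicate B had 303 CPM and the other 3 libraries had 7.93 to 43.6 CPM. For loc24770, heat shock replicate B had 0.498 CPM and the others 0 to 0.0315 CPM. For loc18216, heat shock replicate A had 110 CPM and the others 3.15 to 17.0 CPM.

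The hydroxyurea effect differed between days 11 and 4 at 561 loci by edgeR's test of the difference. Among the printed loci this held for loc02593, with a log2 difference of -6.67 and an adjusted p of 0.000742.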

How the results depend on the processing

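The 4 printed loci kept their direction and call at day 4 under all alternatives that gave an adjusted p. DESeq2 gave none for loc02593. Counts of loci called at day 4 lay within 1.5 times the 3116 reported except with voom and library quality weights in limma (5224 called, 2930 lower and 2294 higher) and, for higher loci, without the colchicine libraries in the fit (2102). Leaving out 1 library of day 4 at a time gave 2336 to 2559 calls, DESeq2 3560 and the test on the 6 libraries alone 3669. The fit without the colchicine libraries gave 4520 calls. No alternative on locus sums turned a call of the 3116 round. On single sequences 1 higher locus held a lower call alone. The 561 loci whose effect differed between days 11 and 4 became 1679 with voom, 922 without the colchicine libraries, 326 with replicates B, C and D alone, and 444 to 480 with a library left out. With voom, 45.4% of the loci then lower and 45.1% of those then higher on day 4 were called the same way after colchicine. The causes were not tested. The other 150 of 152 such shares lay within 1.5 times those reported. Median log2 fold changes also depended on the fit. For loci lower by at least 4-fold on day 4, the alternatives gave -5.54 to -4.88 on day 7. They gave -5.96 to -5.16 on day 11 and -6.25 to -5.41 after colchicine. Most alternatives chose these loci anew.

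Replicate A of hydroxyurea and of control deviated together with r of 0.341, the highest of all pairs between the groups. What these libraries share was not tested. For letters B and C the values were 0.119 and 0.0293, and the letters do not show pairs. Hydroxyurea B correlated best with control C (0.150), and hydroxyurea C with control B (0.102). With a replicate block 3491 loci were called, 2064 lower and 1427 higher. Depth limits calls under 1 CPM, where the median SE was 0.64. The fit on 6 libraries gives no later days. Leaving out the most abundant locus, heat shock replicate B, and colchicine replicates B and C were chosen after seeing the data.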
